A study of Caenorhabditis elegans with 12 samples.

Results

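The *far* genes of *C*. *elegans* encode fatty-acid- and retinol-binding (FAR) proteins, small carriers found in nematodes that hold fatty acids and retinol in a hydrophobic pocket. The members were chosen by gene name, *far-1* to *far-8*, and all 8 were measured, among 12443 genes in the table of *mdt-15(-)* at 15 °C and 12749 genes in the other 2 tables. RNA was sequenced from whole, synchronized day 1 adults fed OP50 bacteria. The 4 groups were *mdt-15(-)* mutants at 15 °C and at 25 °C, and wild-type worms (Bristol N2) at 15 °C and at 25 °C, with 3 independent biological repeats each and 12 libraries in all. The mutants carry the *tm2182* allele, a reduction-of-function mutation of *mdt-15*, which encodes a subunit of the Mediator complex that works with transcription factors of lipid metabolism. The worms were kept at 15 °C or 25 °C from the L1 larval stage on. The allele is inherited and so present in every cell and at every stage. Thus no result refers to one tissue, and effects that began before adulthood are not separated from those of adults.

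FAR proteins belong to a nematode-specific family, and parasitic nematodes release members of it into the tissues of their hosts. In worms, fatty acids are also carried by yolk proteins and by the LBP proteins, which are relatives of vertebrate fatty-acid-binding proteins. FAR proteins are a further set of carriers with a largely helical fold. FAR-1, FAR-2 and FAR-6 are the *C*. *elegans* members most like those of parasitic nematodes, and FAR-7 is a member with a solved crystal structure. In the genome, genes *far-3*, *far-4* and *far-5* lie together on chromosome V within 4091 bases, and *far-1* and *far-2* lie next to each other on chromosome III.

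For every gene the deposited tables hold limma's log2 fold change with its *t* and *p*, but no value per library. Therefore the uncertainty of each change is given here as its standard error, recovered by dividing the change by its *t*. Since limma moderates the variance of a gene by that of other genes, this error is not the spread between the 3 repeats of a group. Group levels, in cpm (counts scaled to the size of the library), are estimates from the average level over all libraries and the 3 fold changes. The tables do not state the direction of their fold changes, which was read from the order of the groups in their names. Genes were called by the thresholds of the study (fold change > 1.5 and unadjusted *p* below 0.05), and the adjusted *p* is that of Benjamini and Hochberg over all genes of a comparison. The effect of *mdt-15(-)* at either temperature and the effect of temperature in wild type share the wild-type libraries of that temperature. In these bulk samples, fewer cells of a type and less RNA per cell cannot be told apart. The change of *mdt-15* itself had standard errors of 1.66 at 15 °C and 1.88 at 25 °C, too large for a check of the labels.

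Across the family, *far-3* and *far-4* were lower in *mdt-15(-)* than in wild type at both temperatures, and in wild type they were lower at 15 °C than at 25 °C. In contrast, *far-1*, *far-2*, *far-5* and *far-6* were called in no comparison. At 15 °C, 2 of the 8 genes fell in *mdt-15(-)* (*far-3* and *far-4*) and 1 rose (*far-7*), where 5.76% of all genes fell and 17.3% rose. At 25 °C, 3 fell (*far-3*, *far-4* and *far-8*) and 0 rose, against 3.72% and 5.85% of all genes. By temperature in wild type, 2 of the 8 fell (*far-3* and *far-4*) and 0 rose at 15 °C, against 6.18% and 3.19% of all genes. In *mdt-15(-)*, 1 of the 8 rose at 15 °C (*far-8*) and 0 fell, against 12.9% and 5.86% of all genes. With adjusted *p* from limma below 0.05, 2 of the 8 (*far-3* and *far-4*) were called for *mdt-15(-)* at 25 °C, against 3.10% of all genes, and 1 (*far-3*) for temperature in wild type, against 1.24%. By this rule 0 of the 8 were called for *mdt-15(-)* at 15 °C, against 7.09% of all genes, and 0 for temperature in *mdt-15(-)*, against 3.30%.

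**Figure D1:**
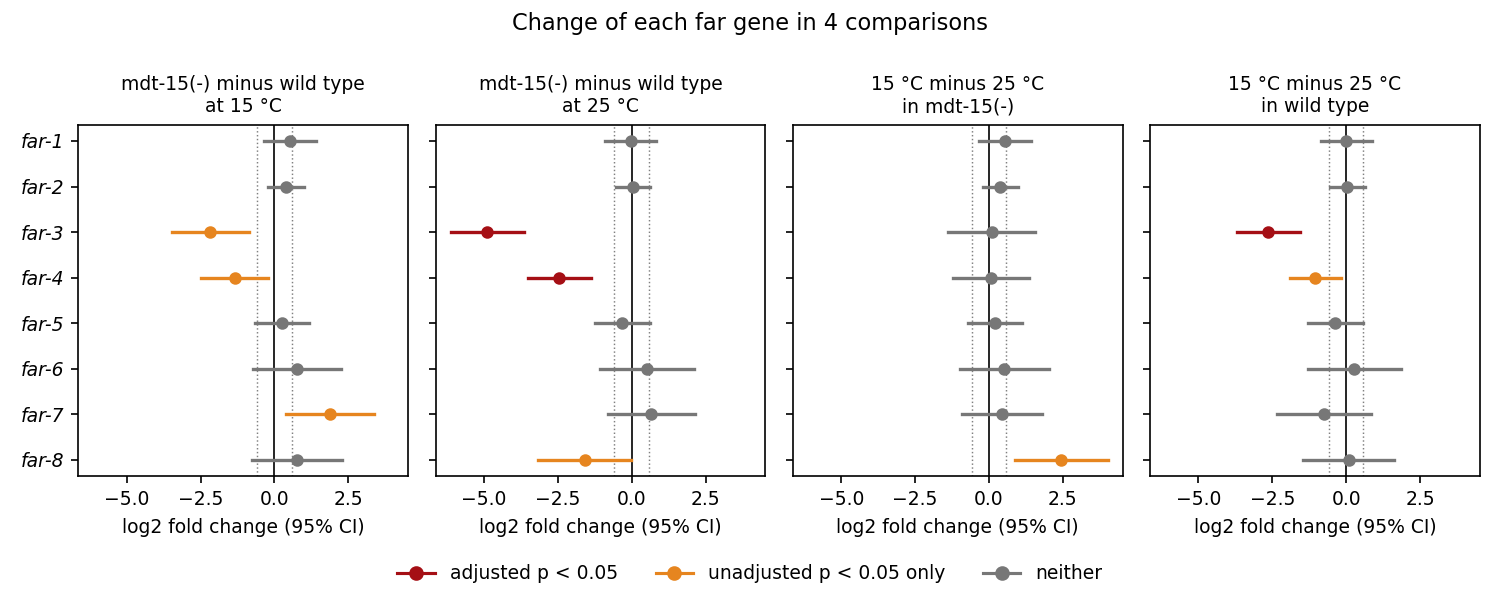
Log2 fold change of each *far* gene (points) with its 95% confidence interval (bars) in 4 comparisons, with dotted lines at a fold change of 1.5 and colour for the *p* reached (red for an adjusted, orange for only an unadjusted *p* below 0.05). Genes *far-3* and *far-4* lie left of 0 in *mdt-15(-)* at both temperatures and at 15 °C in wild type, and near 0 for temperature in *mdt-15(-)*, where *far-8* is the gene furthest to the right.

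The gene *far-3* (WBGene00001387; chromosome V, 12996787 to 12997522, minus strand, ce11) had the largest changes of the family in the 3 deposited comparisons. Its estimated level was 2.14 cpm in *mdt-15(-)* and 9.62 cpm in wild type at 15 °C, and 2.01 cpm in *mdt-15(-)* and 59.7 cpm in wild type at 25 °C. Thus wild type at 25 °C stood highest and wild type at 15 °C second, while both mutant groups lay at nearly the same low level. At 25 °C, *far-3* was 29.7-fold lower in *mdt-15(-)* (log2 fold change -4.89, standard error 0.56, 95% confidence interval -6.13 to -3.65), with an adjusted *p* of 0.000936 from limma. By the size of its *t* this change ranked 53 among 12749 genes. At 15 °C, *far-3* was 4.49-fold lower in *mdt-15(-)* (log2 fold change -2.17, standard error 0.59, 95% confidence interval -3.48 to -0.85). This passed the thresholds of the study (unadjusted *p* = 0.0042 by limma) but not the adjustment (adjusted *p* = 0.0549).

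Temperature changed *far-3* in wild type. The gene was 6.21-fold lower at 15 °C than at 25 °C (log2 fold change -2.63, standard error 0.48, 95% confidence interval -3.69 to -1.58, adjusted *p* = 0.0288 from limma), and ranked 95 among 12749 genes by *t*. In *mdt-15(-)* the change between 15 °C and 25 °C was 0.09 (standard error 0.66, 95% confidence interval -1.38 to 1.56), computed from all 3 tables. The interval leaves room for a 2.94-fold rise, and at about 2 cpm the mutant groups were not distinguishable at this precision. The *mdt-15(-)* effect at 15 °C minus that at 25 °C was 2.73 (standard error 0.82, 95% confidence interval 0.92 to 4.53). This difference had an unadjusted *p* of 0.00706 (two-sided, on the degrees of freedom of limma), but its adjusted *p* over 12443 genes was 0.569.

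The neighbour *far-4* (WBGene00001388; chromosome V, 12998427 to 12999659, minus strand) lies 904 bases upstream of *far-3* on the same strand and had the same order of levels. It was scarce, with 0.311 cpm in *mdt-15(-)* and 0.788 cpm in wild type at 15 °C, and 0.295 cpm in *mdt-15(-)* and 1.62 cpm in wild type at 25 °C. Only wild type at 25 °C exceeded the limit of 1 cpm that the authors used to call a gene detected. At 25 °C, *far-4* was 5.49-fold lower in *mdt-15(-)* (log2 fold change -2.46, standard error 0.48, adjusted *p* = 0.0193 from limma). At 15 °C it was 2.53-fold lower in *mdt-15(-)* (log2 fold change -1.34, standard error 0.51), with an unadjusted *p* of 0.0248 and an adjusted *p* of 0.137 from limma. This call was lost with standard errors 1.2 times as large, where limma's statistics gave an unadjusted *p* of 0.0529. Since the log transformation adds a small constant to each count, the size of such a change in a scarce gene depends on that constant.

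In wild type, *far-4* was 2.06-fold lower at 15 °C than at 25 °C (log2 fold change -1.04, standard error 0.39, unadjusted *p* = 0.0236, adjusted *p* = 0.354 from limma). Its change in *mdt-15(-)* between the temperatures was 0.08 (standard error 0.58, 95% confidence interval -1.21 to 1.37). Between 15 °C and 25 °C its *mdt-15(-)* effect differed by 1.12 (standard error 0.70, 95% confidence interval -0.44 to 2.67), which passed no threshold (adjusted *p* = 0.786 on the statistics of limma). The estimated steps between the groups were thus smaller for *far-4* than for *far-3*, but no test compared both genes. Their 95% confidence intervals overlap for *mdt-15(-)* at 15 °C (-2.47 to -0.21 and -3.48 to -0.85) and for temperature in wild type (-1.91 to -0.17 and -3.69 to -1.58). For *mdt-15(-)* at 25 °C they do not (-3.52 to -1.39 and -6.13 to -3.65).

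The third gene of the cluster, *far-5* (WBGene00001389; chromosome V, 12995569 to 12996836, plus strand), passed no threshold. Its estimated levels were 13.4 cpm in *mdt-15(-)* and 11.2 cpm in wild type at 15 °C, and 11.6 cpm in *mdt-15(-)* and 14.5 cpm in wild type at 25 °C. The 4 levels spanned 0.37 on the log2 scale, which was less than the standard error of any of its comparisons. At 25 °C the log2 fold change of *far-5* in *mdt-15(-)* was -0.32 with a 95% confidence interval of -1.25 to 0.61, which does not overlap the intervals of *far-3* (-6.13 to -3.65) or *far-4* (-3.52 to -1.39). At 15 °C its interval of -0.66 to 1.18 overlaps that of *far-4* (-2.47 to -0.21), and so does its interval for temperature in wild type (-1.30 to 0.55, against -1.91 to -0.17). By distance between the centred patterns over the 4 groups, *far-4* lay 1.93 from *far-5* and 1.98 from *far-3*. Of the 12443 genes, 35 were nearer to *far-3* than *far-4* was, and 3884 were nearer to it than *far-5* was. Seen from *far-4*, 4618 genes were nearer than *far-3* and 3919 nearer than *far-5*. This distance reflects the size of changes as well as their order. The gene *far-5* faces *far-3* from the other strand, and the last 50 exonic bases of both genes overlap. The sources used here do not say whether reads were counted by strand, so reads from these bases cannot be assigned with certainty.

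**Figure D2:**
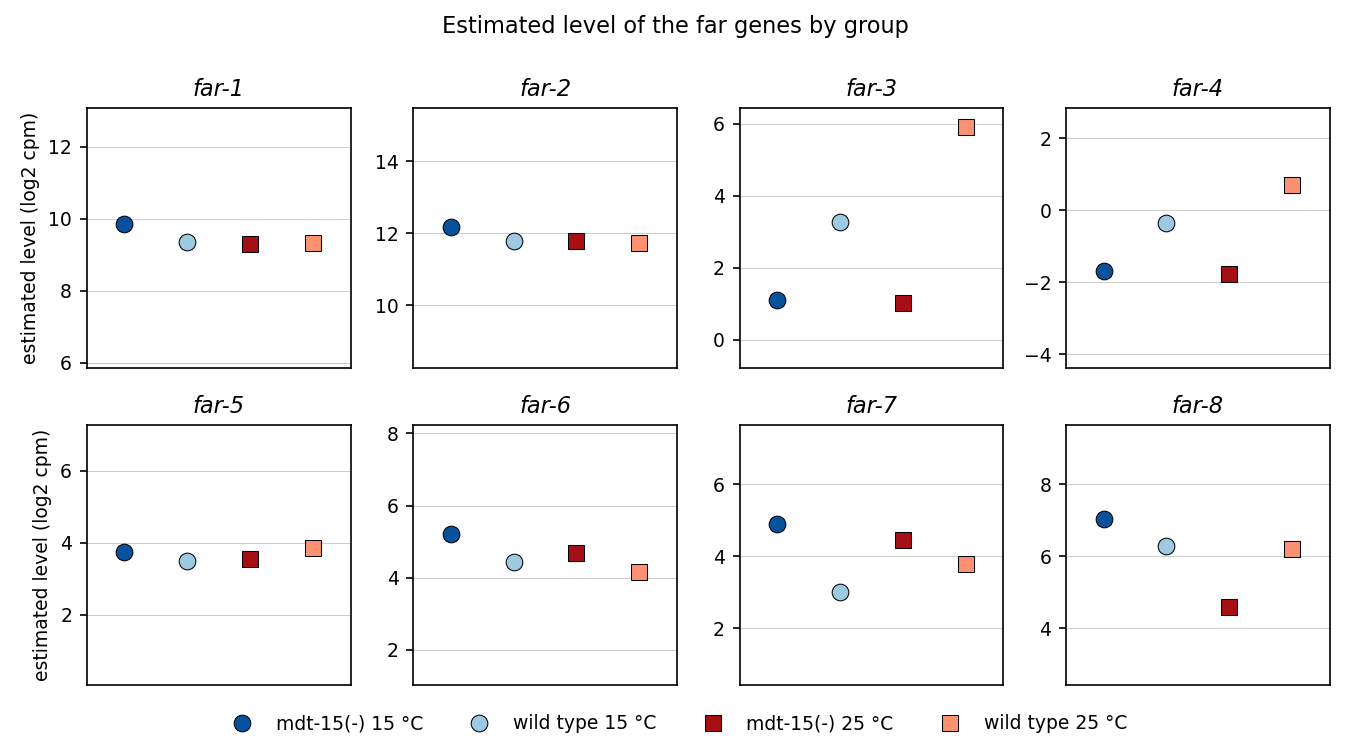
Estimated level (log2 cpm) of each *far* gene in the 4 groups, with every panel spanning the same height on the log2 scale. Each point is 1 group of 3 libraries and no error is drawn, since the tables hold no value per library. For *far-3* and *far-4* both *mdt-15(-)* groups lie below both wild-type groups, *far-8* is lowest in *mdt-15(-)* at 25 °C, and the points of *far-1*, *far-2* and *far-5* stay within 0.56.

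Genes *far-1* and *far-2*, a pair of the FAR proteins most like those of parasites, were by far the most abundant of the family. Per kilobase of exon, the average level was 12.57 log2 cpm for *far-2* and 10.07 for *far-1*. It was 6.38 for *far-8*, 4.76 for *far-6*, 4.62 for *far-7*, 4.27 for *far-5*, 3.39 for *far-3* and -0.28 for *far-4*. Exon lengths are those of Ensembl, which may differ from the annotation of the authors. Both most abundant members passed no threshold. Of the members whose 4 levels spanned the most, *far-3* (4.89 on the log2 scale) and *far-4* (2.46) were the least abundant, while *far-8* (2.44) came next after *far-1* by level.

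The gene *far-1* (WBGene00001385; chromosome III, 9080371 to 9081179, minus strand) was estimated at 927 cpm in *mdt-15(-)* and 649 cpm in wild type at 15 °C, and at 629 cpm in *mdt-15(-)* and 646 cpm in wild type at 25 °C. For *far-2* (WBGene00001386; chromosome III, 9081828 to 9082511, plus strand), which starts 648 bases away and runs in the other direction, these levels were 4607 and 3515 cpm at 15 °C, and 3515 and 3413 cpm at 25 °C, each with *mdt-15(-)* before wild type. In both genes *mdt-15(-)* at 15 °C stood highest, but this lead was within the error. The log2 fold change in *mdt-15(-)* at 15 °C was 0.51 (standard error 0.40, unadjusted *p* = 0.225 by limma) for *far-1* and 0.39 (standard error 0.27, unadjusted *p* = 0.179) for *far-2*. At 25 °C these values were -0.04 (standard error 0.39) and 0.04 (standard error 0.26).

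The errors of *far-2* were the smallest of the family, which limits how large an unseen change could be. Its 95% confidence interval was -0.54 to 0.63 for *mdt-15(-)* at 25 °C and -0.55 to 0.63 for temperature in wild type, that is, up to 1.55-fold either way. For *mdt-15(-)* at 15 °C the interval was -0.21 to 0.99, and a rise of up to 1.99-fold lies within it. For *far-1* the temperature effect in wild type was 0.01 with an interval of -0.86 to 0.87. Between 15 °C and 25 °C in *mdt-15(-)*, the changes were 0.56 (standard error 0.40) for *far-1* and 0.39 (standard error 0.27) for *far-2*, and neither passed a threshold (adjusted *p* = 0.527 and 0.511 on the statistics of limma). The patterns of *far-1* and *far-2* over the 4 groups were closer to each other than those of any other pair in the family, with a distance of 0.12 on the log2 scale after each gene was centred on its mean. Of the 12443 genes, 34 were nearer to *far-1* than *far-2* was, and 58 were nearer to *far-2* than *far-1* was. By this distance, genes that change little lie close together.

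The gene *far-6* (WBGene00001390; chromosome IV, 13328359 to 13329314, plus strand) was called in no comparison. It was estimated at 37.0 cpm in *mdt-15(-)* and 21.7 cpm in wild type at 15 °C, and at 25.8 cpm in *mdt-15(-)* and 17.9 cpm in wild type at 25 °C. Its standard errors, 0.67 to 0.72 in the 3 deposited comparisons, were above those of *far-2*, 0.26 to 0.27. The log2 fold change in *mdt-15(-)* at 15 °C was 0.77 with a 95% confidence interval of -0.73 to 2.26, so neither no change nor a 4.80-fold rise is outside it. It starts 1963 bases downstream of *fat-2*, which encodes the Δ12 fatty acid desaturase. In *mdt-15(-)* at 15 °C, *fat-2* fell (log2 fold change -1.25, standard error 0.45, unadjusted *p* = 0.0187, adjusted *p* = 0.118 from limma), while the estimate of *far-6* was above 0.

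The gene *far-7* (WBGene00001391; chromosome II, 319789 to 321110, plus strand) was the one member that rose in *mdt-15(-)* at 15 °C. It was estimated at 29.7 cpm in *mdt-15(-)* and 8.13 cpm in wild type at 15 °C, and at 21.8 cpm in *mdt-15(-)* and 13.8 cpm in wild type at 25 °C. The highest group was thus *mdt-15(-)* at 15 °C and the lowest wild type at the same temperature. It rose 3.65-fold at 15 °C (log2 fold change 1.87, standard error 0.67, 95% confidence interval 0.38 to 3.36), with an unadjusted *p* of 0.0186 and an adjusted *p* of 0.117 from limma. At 25 °C the log2 fold change was 0.66 (standard error 0.66, unadjusted *p* = 0.342), and the difference between both effects, 1.21 (standard error 0.94), passed no threshold (adjusted *p* = 0.847 on the statistics of limma). The temperature effect was -0.76 (standard error 0.72) in wild type, with a 95% confidence interval of -2.35 to 0.83, and 0.45 (standard error 0.62) in *mdt-15(-)*.

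**Figure D3:**
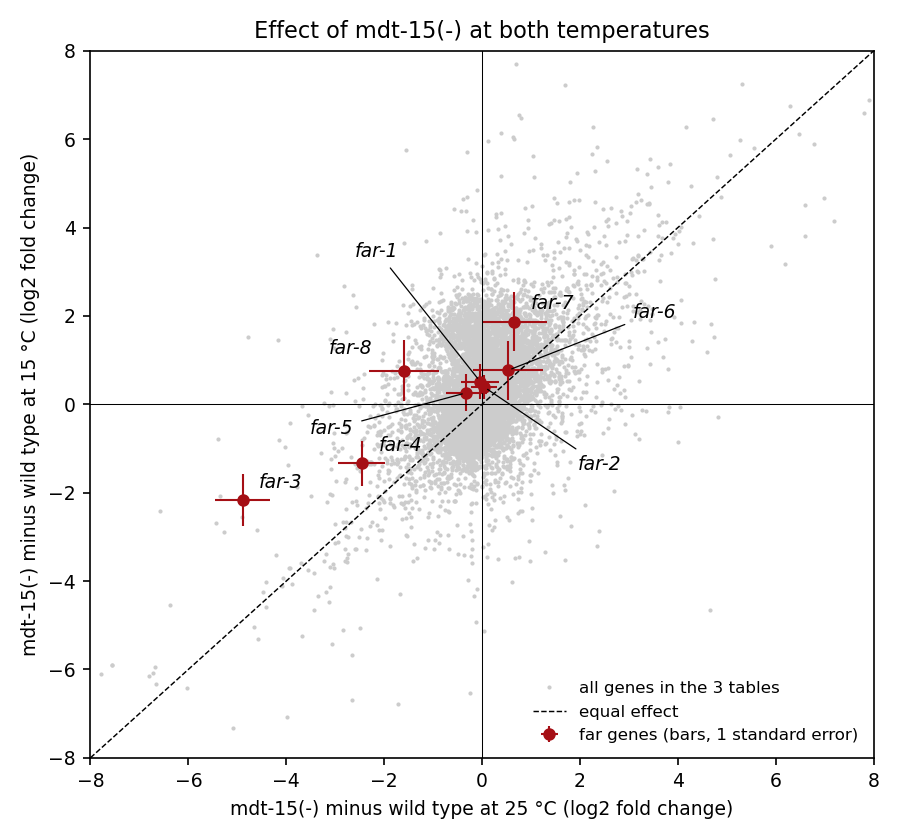
Log2 fold change in *mdt-15(-)* against wild type at 25 °C (horizontal) and at 15 °C (vertical) for 12443 genes (grey) and the 8 *far* genes (red, bars of 1 standard error), with a dashed line of equal effect and 9 genes outside the axes. All 8 *far* genes lie above the line, *far-3* and *far-4* at the lower left and *far-8* at the upper left.

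The gene *far-8* (WBGene00001392; chromosome III, 842930 to 843802, plus strand) was the one member whose *mdt-15(-)* estimates had opposite signs and that was called at one temperature. It was estimated at 132 cpm in *mdt-15(-)* and 77.8 cpm in wild type at 15 °C, and at 24.3 cpm in *mdt-15(-)* and 73.2 cpm in wild type at 25 °C. Both wild-type groups lay close together, and *mdt-15(-)* was the highest group at 15 °C and the lowest at 25 °C. At 25 °C, *far-8* fell 3.02-fold in *mdt-15(-)* (log2 fold change -1.59, standard error 0.71, unadjusted *p* = 0.0489, adjusted *p* = 0.487 from limma), and the 95% confidence interval of -3.18 to -0.01 reached almost to 0. This call was lost with standard errors 1.2 times as large, with 8 degrees of freedom and after centring on the median gene, where limma's statistics gave unadjusted p-values of 0.0917, 0.0564 and 0.0521 in that order. At 15 °C its log2 fold change was 0.76 (standard error 0.69, unadjusted *p* = 0.296). The difference between both effects was 2.35, with a standard error of 0.99 and a 95% confidence interval of 0.15 to 4.55. Its unadjusted *p* was 0.0385 and its adjusted *p* 0.710 (two-sided, on the statistics of limma).

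In wild type, *far-8* changed by 0.09 between the temperatures (standard error 0.69, 95% confidence interval -1.45 to 1.63). In *mdt-15(-)* its level at 15 °C was 5.43-fold above that at 25 °C (log2 fold change 2.44, standard error 0.71, 95% confidence interval 0.87 to 4.01). This had an unadjusted *p* of 0.00599 and an adjusted *p* of 0.0802 (two-sided, on the statistics of limma). Sperm markers moved the same way in this comparison. Of the 7 sperm markers measured of 10 listed, 5 rose at 15 °C in *mdt-15(-)* and 0 fell, against 12.9% and 5.86% of all genes. The median change of the list was 1.97 (log2), and 0 of these markers passed the adjustment. Their summed level was 728 cpm in *mdt-15(-)* and 231 cpm in wild type at 15 °C, and 147 cpm in *mdt-15(-)* and 218 cpm in wild type at 25 °C. Body muscle markers rose for 3 of the 9 measured, with a median of 0.76, and 0 passed the adjustment. Among the other lists the median was 0.70 for hypodermis, 0.31 for coelomocytes, 0.22 for neurons, -0.0007 for intestine and -0.22 for oocytes and germ line. The part of cell make-up in the change of *far-8* was not tested.

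Over the whole family, the *mdt-15(-)* effect at 15 °C exceeded that at 25 °C for 8 of the 8 genes, with a median difference of 0.85, against a median of 0.05 over all genes, of which 53.2% were above 0. This difference passed the thresholds of the study upward for 2 of the 8 (*far-3* and *far-8*) and downward for 0, against 5.30% and 1.64% of all genes. With adjusted *p* from limma it did for 0 of the 8, against 0.113% of all genes. For *far-3* the estimated levels of the mutant groups were nearly equal and those of the wild-type groups were not. For *far-8* the estimates of the wild-type groups were nearly equal and those of the mutant groups were not. The temperature effect in *mdt-15(-)* was above 0 for 8 of the 8 genes (median 0.42, against 0.03 over all genes, of which 51.9% were above 0). In wild type it was for 4 of the 8 (median -0.18, against 0.04). The effect in *mdt-15(-)* is computed from that difference and rests on the same mutant libraries, so it is not a separate observation. All 8 genes were measured in the same libraries, and their shared sign is a description.

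A search for similar patterns covered 9445 genes with an average of at least 1 log2 cpm. For each member called in a deposited comparison, the 3 genes with the most similar pattern over the 4 group levels were sought. For *far-3* these were *F01D5.3*, *hrpf-2* and *F15E6.4*, at distances of 1.41 to 1.54 on the log2 scale. For *far-4* these were *Y37A1B.5*, *T13F3.6* and *F15E6.4*, at 0.25 to 0.52. The gene *F15E6.4* was thus near both, with 3.48 log2 cpm in *mdt-15(-)* and 4.70 in wild type at 15 °C, and 3.27 in *mdt-15(-)* and 6.36 in wild type at 25 °C. The pattern of *far-7* was most like those of *F13H8.1*, *fipr-1* and the F-box gene *fbxa-63*, at 0.09 to 0.14. That of *far-8* was most like those of the collagen gene *col-88*, *T22B7.8* and *C02E7.7*, at 0.14 to 0.26. With 4 levels per gene, such nearness is a description and not a sign of shared control.

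Other lipid carriers were compared as families. Of the 8 *lbp-* genes measured of 9 listed, which encode fatty-acid-binding proteins, 0 passed the thresholds in *mdt-15(-)* at 15 °C. At 25 °C 1, *lbp-7*, fell (log2 fold change -0.83, standard error 0.37, adjusted *p* = 0.467 from limma), where 3.72% of all genes fell. In wild type at 15 °C, *lbp-7* also fell (log2 fold change -0.93, standard error 0.36, adjusted *p* = 0.383 from limma) and *lbp-5* rose (0.73, standard error 0.28, adjusted *p* = 0.366), against 6.18% and 3.19% of all genes. Between the temperatures in *mdt-15(-)*, *lbp-7* changed by -0.09 (standard error 0.38). Of the 7 genes for acyl-CoA-binding proteins, 1 rose in *mdt-15(-)* at 15 °C, where 17.3% of all genes rose, and 0 passed at 25 °C. Of the 6 vitellogenin genes, which encode the yolk proteins that carry lipid to oocytes, 3 fell in *mdt-15(-)* at 15 °C and 1 at 25 °C, against 5.76% and 3.72% of all genes. All 6 fell at 15 °C in *mdt-15(-)* compared with 25 °C, against 5.86% of all genes. Of these, *vit-1* passed the adjustment for *mdt-15(-)* at 15 °C (log2 fold change -1.73, standard error 0.38, adjusted *p* = 0.024 from limma). For temperature in *mdt-15(-)*, *vit-1* and *vit-4* did (log2 fold changes -1.65 and -1.67, adjusted *p* = 0.0469 and 0.0282). The median *mdt-15(-)* change of the vitellogenin genes was -0.89 at 15 °C and -0.06 at 25 °C. The difference between both temperatures passed the thresholds downward for 2 of the 6 (*vit-3* and *vit-4*), against 1.64% of all genes, and with adjusted *p* for 0. Of the 7 lipocalin-related *lpr-* genes listed, 2 were in the tables of 25 °C and of temperature in wild type, and neither was called.

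Markers of 7 cell types were read in the same tables. For *mdt-15(-)* at 25 °C, 1 of 57 measured markers passed the thresholds. This was the intestinal gene *asp-1*, which rose, where 5.85% of all genes rose and 3.72% fell. By temperature in wild type 3 of 57 did, with 2 higher and 1 lower at 15 °C, against 3.19% and 6.18% of all genes. In *mdt-15(-)* at 15 °C, 11 of 56 passed, with 7 higher and 4 lower, against 17.3% and 5.76% of all genes. Among them were 3 of the 10 markers of oocytes and germ line, which fell, and 3 of the 7 of sperm and 3 of the 9 of body muscle, which rose. Hypodermal markers passed for 0 of 10 in every comparison, with summed levels of 6977 cpm in *mdt-15(-)* and 3724 cpm in wild type at 15 °C, and 4289 cpm in *mdt-15(-)* and 6176 cpm in wild type at 25 °C. The part of cell make-up in the changes of *far-3*, *far-4* and *far-7* was not tested.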

How the data were processed

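Per the labels, paired-end Illumina HiSeq reads of 12 libraries were aligned to ce11 with HISAT2 (2.0.5) and processed with StringTie (1.3.3) and Ballgown (2.0.0). The authors compared groups with edgeR (3.10.5) and limma (3.24.15), leaving out genes with a cpm under 1. The gene annotation and read strandedness are not given in the sources used here. The deposited values are log2 fold changes and log2 average expression, a moderated *t* score, and limma's p-value with its adjusted p, one table per comparison of the authors (wild type 25 °C against 15 °C, and wild type against *mdt-15(-)* at each temperature). They are the authors' own fits. No value per library was used, so depth is unknown and no count model was fitted.

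The tables do not state their direction. The group named first was taken as the one on top, and signs were turned to *mdt-15(-)* minus wild type and 15 °C minus 25 °C. Under this reading the desaturase gene *fat-7*, a target of MDT-15 that is known to be induced by cold, was lower in *mdt-15(-)* in both tables and higher at 15 °C in wild type. Standard errors are the log2 fold change divided by *t*, and confidence intervals use the 10.4 degrees of freedom recovered from *t* and p. The difference of *mdt-15(-)* effects uses the sum of both variances. The temperature effect in *mdt-15(-)* is the wild-type effect plus that difference, with both mutant variances minus the wild-type variance. Both were adjusted over 12443 genes, and the formulas were checked on simulated data against a direct limma fit. Group levels ignore the weights of limma and are approximate. Average expression agreed between tables up to a constant. However, the table of *mdt-15(-)* at 15 °C held 12443 genes with 10.4254 recovered degrees of freedom, and the others 12749 with 10.4441. Its values thus came from a separate fit. Both derived comparisons combine variances from these separate fits, so their standard errors and p-values are approximate. How far this combination shifts them was not tested.

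Gene positions come from Ensembl release 115 (WBcel235, the same assembly as ce11), where 12408 of 12443 identifiers were found. Genes named are the 8 members and the 3 nearest patterns of each called member. List members are named where they passed the adjustment among the 2 largest changes of their list. Others were chosen after their values were seen (*fat-2*, *fat-7*, *lbp-5*, *lbp-7*, *vit-3*, *asp-1* and the genes beside the members). Members and lists were chosen with earlier results of these data known. Alternatives were adjusted p, fold limits of 2 or none, an average log2 expression of at least 1, errors 1.2 times as large, 8 degrees of freedom, and centring on the median gene. Computations used scipy 1.17.1, pandas 2.3.3, numpy 2.4.6 and matplotlib 3.10.9 under Python 3.11.15, and, for simulated data, limma 3.58.1 under R 4.3.3.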

Additional observations from a re-analysis of the deposited data

Results flagged for a closer look

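The *mdt-15(-)* effect differed between 15 °C and 25 °C for a pair of *far* genes by the test of the difference itself, at an unadjusted *p* below 0.05. For *far-3* the effect was -2.17 at 15 °C and -4.89 at 25 °C, a difference of 2.73 on the log2 scale (standard error 0.82, adjusted *p* = 0.569 on the statistics of limma). For *far-8* the effect was 0.76 at 15 °C and -1.59 at 25 °C, a difference of 2.35 (standard error 0.99, adjusted *p* = 0.710 on the statistics of limma). Neither passed the adjustment over 12443 genes, of which 14 did.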

How the results depend on the processing

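No paired analysis was possible because the tables hold no value per library, and leaving out a repeat was not run for the same reason. Of 275 values of single members under the alternatives, 260 kept their direction and side of the threshold. Values that were not called could not gain a call under the stricter settings, and only centring could change a sign. Thus many of the 260 were fixed in advance, and their number does not measure robustness. A further 14 lost their call, 8 of them under adjusted *p*. Of the 14, 4 were *far-8* in *mdt-15(-)* at 25 °C, under adjusted *p*, larger standard errors, 8 degrees of freedom and centring. Lastly, 1 changed sign (*far-1* by temperature in wild type, -0.037 when fold changes were centred on the median gene). With adjusted *p* from limma, the number of *far* genes called was 0 in place of 3 for *mdt-15(-)* at 15 °C, 1 in place of 2 for temperature in wild type, 0 in place of 2 for the difference of the *mdt-15(-)* effects and 0 in place of 1 for temperature in *mdt-15(-)*. For temperature in wild type 1 was left when standard errors were 1.2 times as large, and 1 when average expression had to reach 1 log2 cpm, which leaves *far-4* out. For *mdt-15(-)*, 2 of 3 were left under each of these settings at either temperature. For the difference, 1 was left with the larger standard errors. Among the other lipid carriers, adjusted *p* left 1 of 4 calls for *mdt-15(-)* at 15 °C, 0 of 2 at 25 °C, 0 of 3 for temperature in wild type, 0 of 2 for the difference and 2 of 9 for temperature in *mdt-15(-)*. Centring left 1 of the 2 at 25 °C. Among cell type markers, adjusted *p* left 2 of 11 calls for *mdt-15(-)* at 15 °C, 0 of 1 at 25 °C, 0 of 3 for temperature in wild type, 0 of 1 for the difference, where centring also left 0, and 0 of 9 for temperature in *mdt-15(-)*. Adjusted *p* and larger standard errors are stricter by construction; for centring the cause was not tested. What depth limits is unknown, since no value per library was used.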

Other observations

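The genes that flank the *far* genes were read in the same tables, after the values of the members had been seen. Within 15 kb of a member, 23 other genes were measured, of which 3 rose and 2 fell past the thresholds of the study in *mdt-15(-)* at 15 °C, against 17.3% and 5.76% of all genes. At 25 °C 1 rose and 1 fell, against 5.85% and 3.72%, and in wild type 1 fell at 15 °C, against 6.18%. These shares are near those of all genes. Around the *far-3*, *far-4* and *far-5* cluster on chromosome V, 5 other genes were measured, and those called were *F15B9.10* and *F15B9.6*. The gene *F15B9.10* rose in *mdt-15(-)* at 15 °C by 0.66 on the log2 scale (standard error 0.20, adjusted *p* = 0.0726 from limma). The gene *F15B9.6* (chromosome V, 13014144 to 13016641, plus strand) rose in *mdt-15(-)* by 3.87 on the log2 scale at 15 °C (standard error 0.51, adjusted *p* = 0.00125 from limma) and by 1.73 at 25 °C (standard error 0.53, adjusted *p* = 0.156). These changes are opposite in sign to those of *far-3* and *far-4* nearby. The gene *inft-2*, which encodes a formin, is the measured gene nearest to *far-4* on the side away from *far-3*. Its log2 fold changes in *mdt-15(-)* were -0.48 at 15 °C and -0.07 at 25 °C, each with a standard error of 0.33. They passed no threshold.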
